A study of Mus musculus with 11 samples.

Results

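The genes described here are *Trp53*, which encodes the tumor suppressor p53, and 9 of its well-known target genes in mouse mammary tumors with and without *Pcbp1*. They were chosen by name, and all 10 were found among the 26283 genes of the deposited tables. Bulk RNA sequencing covered mammary tumors that had grown in C57BL/6 females by the age of 18 weeks, 6 PyMT *Pcbp1*–/– and 5 PyMT *Pcbp1*+/+. Mice of both groups carried MMTV-PyMT, which drives the polyomavirus middle T oncogene in the mammary gland, and MMTV-Cre. The PyMT *Pcbp1*–/– mice had floxed *Pcbp1* alleles (fl/fl) and the PyMT *Pcbp1*+/+ controls had alleles without loxP sites (wt/wt). The paper describes the knockout as selective for mammary epithelial cells. Stromal and immune cells of a PyMT *Pcbp1*–/– tumor would then keep the gene, which was not measured by cell type here. The comparison of the groups asks whether p53 and its targets differ when the epithelium lacks PCBP1.

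p53 is a transcription factor that is held at a low level by the ubiquitin ligase MDM2 and is stabilized after DNA damage, oncogene signaling and other stress. It then raises transcription of genes that stop the cell cycle, trigger apoptosis or limit metabolic damage, and of *Mdm2* itself, which closes a negative feedback loop. Because p53 is controlled mainly as a protein, its mRNA is a poor guide to its activity, and loss of p53 function is common in breast cancer.

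The authors deposited estimated counts per gene and the same values scaled to a sum of 1000000 per tumor (CPM). The counts of a tumor summed to between 10543189 and 14092192, and 3 counts were worth between 0.213 and 0.285 CPM. All values per tumor below are deposited CPM. The targeted gene, *Pcbp1* (chr6:86524492-86526321 of GRCm38), had 15.4 CPM in the lowest, 20.9 CPM at the median and 33.6 CPM in the highest PyMT *Pcbp1*–/– tumor, and 268, 271, 225, 220 and 259 CPM for PyMT *Pcbp1*+/+ replicates 1 to 5. The groups did not overlap, and the log2 fold change of PyMT *Pcbp1*–/– over PyMT *Pcbp1*+/+ was -3.43 (standard error 0.19, adjusted p = 4.72e-06 from edgeR).

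The tissue label was compared with markers of the mammary luminal epithelium, of which 8 of 8 were present. Their summed level lay between 1220 and 2131 CPM in PyMT *Pcbp1*–/– tumors and between 1478 and 2013 CPM in PyMT *Pcbp1*+/+ tumors. *Cldn3*, a tight junction protein, was the most abundant of them per kilobase of annotated exon, and 0 of the 8 differed between the groups at an adjusted p under 0.05 (edgeR; also 0 at an unadjusted p under 0.05). Other cells were present too. Fibroblast markers summed to between 385 and 979 CPM over the 11 tumors, macrophage markers to between 220 and 497 CPM, endothelial markers to between 40.2 and 76.4 CPM and adipocyte markers to between 1.14 and 57.3 CPM. T cell markers did not exceed 8.75 CPM in sum, and the only B cell marker in the table, *Cd79b*, did not exceed 0.773 CPM. In bulk RNA, fewer cells of a type and less RNA per cell cannot be told apart.

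Of the 10 genes, 0 differed between the groups at an adjusted p under 0.05 in edgeR's quasi-likelihood test over the 19232 genes tested. Across the table, 436 genes did, which is 2.27% of those tested, with 117 higher (0.608%) and 319 lower (1.66%) in PyMT *Pcbp1*–/– tumors. At an unadjusted p under 0.05 the count among the 10 was also 0, against 18.7% of all genes tested. DESeq2 called 0 of the 10, against 6.27% of all genes tested. Limma-voom with sample quality weights called 1 of the 10, *Ccng1*, against 11.2% of all genes tested, a share that 1 of 10 does not exceed. The groups overlapped for each of the 10 genes, while 633 genes of the table (3.29%) had no overlap. 7 of the 10 log2 fold changes were above 0 and 3 below, with a median of 0.07, beside a median of 0.00 over all genes tested. This split depended on the method and on single tumors. Limma-voom with sample quality weights gave 9 above 0 and 1 below, with a median of 0.22, and the replicate block, on 10 tumors, also 9 and 1, with a median of 0.10. Without PyMT *Pcbp1*+/+ replicate 2 there were 10 above 0 and 0 below, with a median of 0.23. Without PyMT *Pcbp1*–/– replicate 1 there were 5 and 5, with a median of 0.00, and without PyMT *Pcbp1*+/+ replicate 5 also 5 and 5, with a median of 0.03. The nearest to the threshold was *Cdkn1a*, with an adjusted p of 0.327 from edgeR. A p above the threshold does not show that the groups are equal, so the 95% interval of each gene is given with its values.

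*Trp53* (chr11:69580359-69591873) had 44.0 CPM in the lowest, 55.3 CPM at the median and 71.3 CPM in the highest PyMT *Pcbp1*–/– tumor. In PyMT *Pcbp1*+/+ replicates 1 to 5 it had 49.2, 93.7, 41.7, 46.9 and 59.8 CPM. The range of the PyMT *Pcbp1*–/– tumors lay within that of the PyMT *Pcbp1*+/+ tumors, where replicate 2 alone stood above all the others. The log2 fold change was -0.05 (95% interval -0.50 to 0.40, adjusted p = 0.919 from edgeR), which leaves room for a level between 0.71-fold and 1.32-fold that of the controls. Without PyMT *Pcbp1*+/+ replicate 2 the sign turned, to 0.18.

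*Mdm2* (chr10:117688875-117710758), the target whose product marks p53 for degradation, varied little. It had 42.4, 47.7 and 64.4 CPM in the lowest, median and highest PyMT *Pcbp1*–/– tumor and 49.2, 68.7, 40.3, 45 and 41.8 CPM for PyMT *Pcbp1*+/+ replicates 1 to 5. One tumor of each group, PyMT *Pcbp1*–/– replicate 1 and PyMT *Pcbp1*+/+ replicate 2, was high, and the remaining tumors of both groups shared a narrow band. Its log2 fold change was 0.02 (95% interval -0.28 to 0.33, adjusted p = 0.947 from edgeR), so that the fold lay between 0.82 and 1.26.

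*Trp53inp1* (chr4:11156431-11174379) encodes a stress-induced nuclear protein that promotes p53 phosphorylation and is itself a p53 target. Its values were 158, 191 and 209 CPM in the lowest, median and highest PyMT *Pcbp1*–/– tumor and 168, 255, 157, 195 and 129 CPM for PyMT *Pcbp1*+/+ replicates 1 to 5. Both the highest and the lowest tumor were PyMT *Pcbp1*+/+, and the PyMT *Pcbp1*–/– tumors fell between them. The log2 fold change was 0.06 (95% interval -0.26 to 0.37, adjusted p = 0.870 from edgeR).

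Of the genes that act on the cell cycle, *Cdkn1a* (chr17:29090979-29100722) encodes p21, the inhibitor of cyclin-dependent kinases through which p53 halts cells before S phase. It had 36.5 CPM in the lowest, 70.5 CPM at the median and 148 CPM in the highest PyMT *Pcbp1*–/– tumor. In PyMT *Pcbp1*+/+ replicates 1 to 5 it had 60.4, 88.5, 35.5, 40.0 and 29.3 CPM. 5 of 6 PyMT *Pcbp1*–/– tumors lay above the PyMT *Pcbp1*+/+ median of 40.0 CPM, but PyMT *Pcbp1*–/– replicate 2 was low and PyMT *Pcbp1*+/+ replicate 2 was high, so that the groups overlapped widely. The means were 78.4 ± 37.2 CPM (SD, n = 6) and 50.7 ± 24.1 CPM (SD, n = 5). At 0.64, the log2 fold change of *Cdkn1a* (95% interval -0.09 to 1.37, adjusted p = 0.327 from edgeR) was the highest among the 10 genes, and its interval reached from 0.94-fold to 2.58-fold.

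Single tumors moved the *Cdkn1a* value in both directions. Without PyMT *Pcbp1*–/– replicate 1 the log2 fold change was 0.37 (adjusted p = 0.525 from edgeR), and without PyMT *Pcbp1*+/+ replicate 2 it was 0.94 (adjusted p = 0.133 from edgeR). Over 21 alternatives the adjusted p of *Cdkn1a* ranged from 0.053 to 0.525, and its sign was positive in each.

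*Ccng1* (chr11:40748552-40755311), which encodes cyclin G1, a regulator of the MDM2 loop, had 91.3, 144 and 161 CPM in the lowest, median and highest PyMT *Pcbp1*–/– tumor. In PyMT *Pcbp1*+/+ replicates 1 to 5 it had 94.7, 173, 93.5, 90.6 and 87.7 CPM. 4 of the 5 PyMT *Pcbp1*+/+ tumors sat close together at a low level that only replicate 2 of the PyMT *Pcbp1*–/– tumors shared, and PyMT *Pcbp1*+/+ replicate 2 was the highest of all 11. Its log2 fold change was 0.36 (95% interval -0.07 to 0.79, adjusted p = 0.358 from edgeR). With limma-voom and sample quality weights it was 0.53 (adjusted p = 0.0296 from limma), the single call that any member received in 21 alternatives, over which its adjusted p reached up to 0.552. Without PyMT *Pcbp1*+/+ replicate 2 it was 0.59 (adjusted p = 0.0647 from edgeR).

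*Gadd45a* (chr6:67035096-67037457), whose product slows entry into mitosis after DNA damage, had 11.6, 14.4 and 28.3 CPM in the lowest, median and highest PyMT *Pcbp1*–/– tumor and 20.8, 11.5, 11.9, 10.7 and 11.4 CPM for PyMT *Pcbp1*+/+ replicates 1 to 5. Here the high tumors were PyMT *Pcbp1*–/– replicate 1 and PyMT *Pcbp1*+/+ replicate 1, and PyMT *Pcbp1*+/+ replicate 2 was not high. The log2 fold change was 0.30 (95% interval -0.21 to 0.82, adjusted p = 0.526 from edgeR), and without PyMT *Pcbp1*–/– replicate 1 it was 0.085. RP23-129P10.1, a processed transcript on the opposite strand (chr6:67036599-67080654), overlaps *Gadd45a* and had between 2.17 and 6.83 CPM. Whether the counting used strand is not given in the sources used here, so reads of the overlap cannot be told apart.

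*Plk2* (chr13:110395046-110400844), a polo-like kinase induced by p53, had 31.1, 41.9 and 65.6 CPM in the lowest, median and highest PyMT *Pcbp1*–/– tumor. In PyMT *Pcbp1*+/+ replicates 1 to 5 it had 54.8, 99.2, 35.0, 58.3 and 23.2 CPM. The PyMT *Pcbp1*+/+ tumors spanned more than the PyMT *Pcbp1*–/– tumors on both sides, with replicate 2 at the top and replicate 5 at the bottom. It was the lowest of the 10 log2 fold changes, at -0.25 (95% interval -0.90 to 0.41, adjusted p = 0.699 from edgeR), and without PyMT *Pcbp1*+/+ replicate 2 it turned to 0.094.

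**Figure D1:**
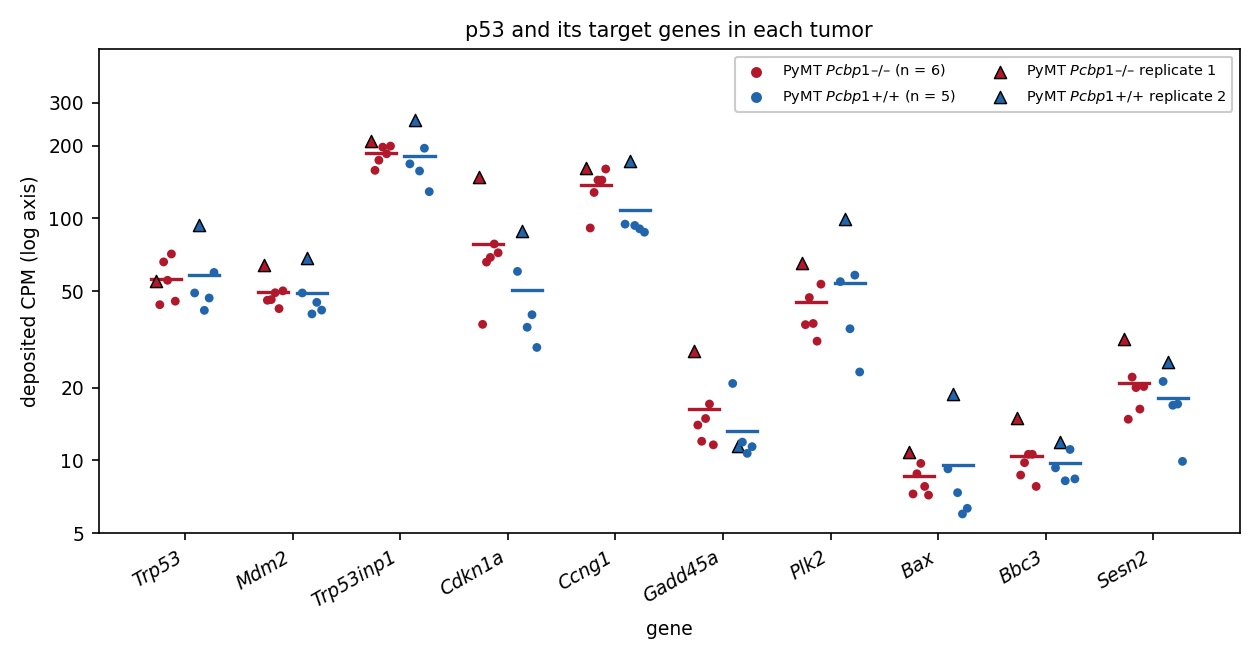
Deposited CPM of the 10 genes in each tumor, on a log axis, with PyMT *Pcbp1*–/– tumors (n = 6) in red and PyMT *Pcbp1*+/+ tumors (n = 5) in blue; horizontal lines are group means and triangles mark PyMT *Pcbp1*–/– replicate 1 and PyMT *Pcbp1*+/+ replicate 2. The groups overlap for each gene, and the highest point of each gene is a triangle.

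Of the genes that act in apoptosis, *Bax* (chr7:45461697-45466898) encodes a BCL-2 family protein that opens the outer mitochondrial membrane. It had 7.19, 8.31 and 10.8 CPM in the lowest, median and highest PyMT *Pcbp1*–/– tumor and 9.23, 18.8, 7.36, 6.01 and 6.34 CPM for PyMT *Pcbp1*+/+ replicates 1 to 5. PyMT *Pcbp1*+/+ replicate 2 stood far above every other tumor, and the rest of the PyMT *Pcbp1*+/+ tumors overlapped with or lay below the PyMT *Pcbp1*–/– tumors. It had a log2 fold change of -0.14 (95% interval -0.73 to 0.44, adjusted p = 0.812 from edgeR), and it turned to 0.25 without that tumor (adjusted p = 0.420 from edgeR).

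*Bbc3* (chr7:16308393-16318205) encodes PUMA, a BH3-only protein that releases BAX from inhibition. It had 7.81, 10.2 and 15.0 CPM in the lowest, median and highest PyMT *Pcbp1*–/– tumor and 9.32, 11.9, 8.24, 11.1 and 8.39 CPM for PyMT *Pcbp1*+/+ replicates 1 to 5. PyMT *Pcbp1*–/– replicate 1 was the highest and the other tumors of both groups were mixed. The log2 fold change was 0.09 (95% interval -0.26 to 0.44, adjusted p = 0.795 from edgeR), and without PyMT *Pcbp1*–/– replicate 1 it turned to -0.030.

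*Sesn2* (chr4:132492032-132510501) encodes sestrin 2, a leucine sensor that restrains mTORC1 and takes part in antioxidant defense. Its values were 14.8, 20.1 and 31.8 CPM in the lowest, median and highest PyMT *Pcbp1*–/– tumor and 21.2, 25.6, 16.9, 17.1 and 9.91 CPM for PyMT *Pcbp1*+/+ replicates 1 to 5. PyMT *Pcbp1*–/– replicate 1 was again the highest, and PyMT *Pcbp1*+/+ replicate 5 was lower than any other tumor. Its log2 fold change was 0.21 (95% interval -0.29 to 0.70, adjusted p = 0.664 from edgeR). It was 0.054 without PyMT *Pcbp1*–/– replicate 1, 0.064 without PyMT *Pcbp1*+/+ replicate 5 and 0.36 without PyMT *Pcbp1*+/+ replicate 2. RP23-63D8.4 overlaps *Sesn2* (chr4:132503561-132509649) and had at most 0.759 CPM. The table gives its type as antisense but places it on the minus strand, the strand of *Sesn2*.

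**Figure D2:**
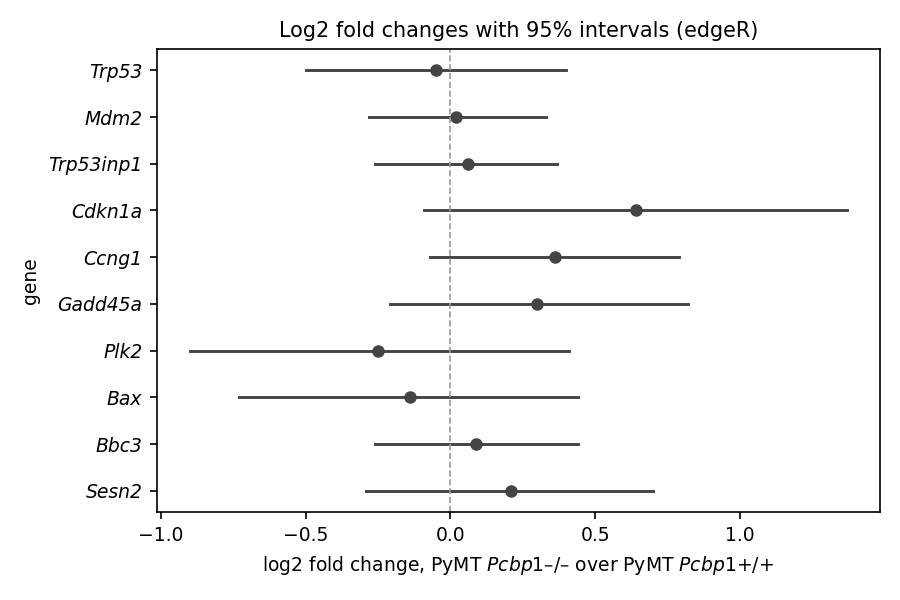
Log2 fold change of PyMT *Pcbp1*–/– (n = 6) over PyMT *Pcbp1*+/+ tumors (n = 5) for the 10 genes, from edgeR; points are estimates, horizontal lines are 95% intervals and the dashed line marks no difference. Each interval includes 0, from the lowest estimate of -0.25 for *Plk2* to the highest of 0.64 for *Cdkn1a*.

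Each of the 10 genes had its highest CPM in 1 of only 2 tumors. PyMT *Pcbp1*+/+ replicate 2 was highest for 6 genes (*Trp53*, *Mdm2*, *Trp53inp1*, *Ccng1*, *Plk2* and *Bax*) and PyMT *Pcbp1*–/– replicate 1 for the other 4 (*Cdkn1a*, *Gadd45a*, *Bbc3* and *Sesn2*). These tumors are highest for 17.9% and 9.51% of all genes tested. On the log2 scale relative to the mean of each gene over the 11 tumors, after TMM scaling, the median of the 10 genes was 0.49 in PyMT *Pcbp1*+/+ replicate 2 and 0.45 in PyMT *Pcbp1*–/– replicate 1. In the other 9 tumors it lay between -0.36, in PyMT *Pcbp1*+/+ replicate 5, and 0.10, in PyMT *Pcbp1*–/– replicate 4. The spans over all tumors were widest for *Cdkn1a* (2.23 on the log2 scale), *Plk2* (2.00) and *Bax* (1.70), and narrowest for *Mdm2* (0.67).

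The tumors that were high did not share one profile. *Cdkn1a* and *Gadd45a* led in PyMT *Pcbp1*–/– replicate 1, at 1.30 and 0.97 above their means on the log2 scale, where *Trp53* itself was at -0.03. *Bax* and *Plk2* led in PyMT *Pcbp1*+/+ replicate 2, at 1.12 and 1.11, where *Trp53* was at 0.74 and *Gadd45a* at -0.33. These tumors were singled out by the members, so a wider view, taken after their values were seen, left the members out and used the 3 lists of other targets described below. Of these 42 genes, 39 were tested, and 27 of the 39 (69.2%) were highest in PyMT *Pcbp1*–/– replicate 1 or PyMT *Pcbp1*+/+ replicate 2, beside 27.4% of all genes tested, as a description with no test. *Cdkn2a*, the locus of the MDM2 inhibitor p19ARF, was also looked up after its values were seen. It had 15.0 CPM in PyMT *Pcbp1*–/– replicate 1, from 2.40 to 4.09 CPM elsewhere in that group, and 5.57, 5.97, 0.789, 3.19 and 0.268 CPM for PyMT *Pcbp1*+/+ replicates 1 to 5.

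**Figure D3:**
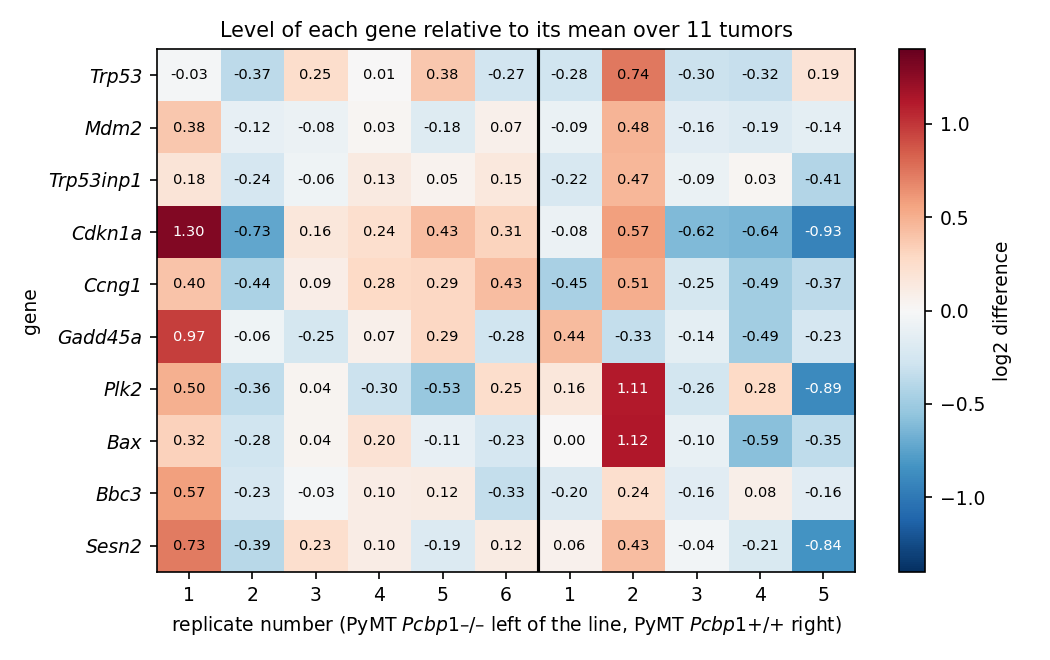
Level of each of the 10 genes (rows) in each tumor (columns, by replicate number) as the log2 difference from the mean of that gene over the 11 tumors, after TMM scaling; red is above and blue below the mean. PyMT *Pcbp1*+/+ replicate 2 is above the mean for every gene but *Gadd45a*, and PyMT *Pcbp1*–/– replicate 1 for every gene but *Trp53*.

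Cell type markers also varied between tumors. The luminal epithelial markers summed to 1220 CPM in PyMT *Pcbp1*–/– replicate 1, the lowest of the 11. There 5 of the 7 macrophage markers were highest, while *Cd14*, the most abundant of the 7 per kilobase, was at 64.8 CPM, the second lowest of the 11. The macrophage sum was 343 CPM there, below 497 and 408 CPM in PyMT *Pcbp1*+/+ replicates 1 and 2. *Cd14* had 310 and 282 CPM in these and was lower in PyMT *Pcbp1*–/– tumors at -1.19 on the log2 scale (95% interval -1.79 to -0.58, adjusted p = 0.0481 from edgeR). That call was near the threshold: it was made in 7 of 21 alternatives, with an adjusted p from 0.00207 (DESeq2) to 0.193 (replicate block), and was lost without any 1 of the PyMT *Pcbp1*–/– tumors (log2 from -1.27 to -1.13) and without PyMT *Pcbp1*+/+ replicate 1 (-0.96) or 2 (-0.98). In PyMT *Pcbp1*+/+ replicate 2 the basal keratin *Krt14* had 277 CPM, against at most 47.6 CPM in the others, and *Krt17* was highest there too, with 46.9 CPM. The other 4 of the 6 basal or myoepithelial markers were low in this tumor: *Oxtr* (17.5 CPM), *Acta2* (13.4 CPM) and *Myh11* (5.5 CPM) had their lowest level of the 11 tumors, and *Krt5* had 9.01 CPM. The median of the 6 relative to their means was -1.95 on the log2 scale, with -1.75 in PyMT *Pcbp1*–/– replicate 2 and -1.54 in PyMT *Pcbp1*+/+ replicate 5. The 6 summed to 369 CPM in PyMT *Pcbp1*+/+ replicate 2, mostly *Krt14*, and to between 84.7 and 769 CPM in the other tumors. The 769 CPM belong to PyMT *Pcbp1*+/+ replicate 1, in which 4 of the 6 were highest. Per kilobase of exon, *Krt5* was the most abundant of the 6 over all tumors. The 5 endothelial markers, *Cdh5* the most abundant per kilobase, had their highest sums in PyMT *Pcbp1*–/– replicate 1 (76.4 CPM) and PyMT *Pcbp1*+/+ replicate 2 (76.0 CPM), with from 40.2 to 72.0 CPM in the other tumors. By their median relative to their means these 2 did not stand out, at 0.39 and 0.31 beside 0.41 in PyMT *Pcbp1*+/+ replicate 3 and 0.36 in replicate 4, and 0 and 1 of the 5 were highest there. The 5 adipocyte markers summed to 27.9 CPM in PyMT *Pcbp1*–/– replicate 1 and 3.22 CPM in PyMT *Pcbp1*+/+ replicate 2. Their medians relative to their means were 2.33 and -1.19 there, and from -3.07 to 3.43 in the other tumors. For fibroblast markers these medians were 0.05 and -0.35, and for T cell markers -0.33 and -0.55. The markers named in this comparison were picked after their values were seen. PyMT *Pcbp1*+/+ replicate 2 also had the lowest total count, 10543189. The part of these markers and of depth in the p53 target levels was not tested.

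Across the 11 tumors the genes varied together. Of their 45 pairs, 44 had a positive Pearson correlation of log2 TMM-scaled CPM, with a median r of 0.61. After the mean of each genotype was subtracted the median was 0.64. The median r of a member with the other genes tested was 0.00. Scaling to all genes tends to hold that value near 0, so it is no baseline for a set of related genes. At a Benjamini-Hochberg adjusted p under 0.05 over the 45 pairs (two-sided permutation test with 100000 resamples), 18 pairs passed by Pearson's r, 7 by Spearman's rho and 6 by both. The relation rested in part on the high tumors, since without PyMT *Pcbp1*–/– replicate 1 and PyMT *Pcbp1*+/+ replicate 2, an alternative chosen after seeing the data, the median r was 0.32.

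*Cdkn1a* took part in 3 of the 6 pairs that passed by both measures. With *Ccng1* it had r = 0.85 (permutation p = 0.00116, adjusted p = 0.0174) and rho = 0.85 (permutation p = 0.0019, adjusted p = 0.0237), and r was 0.89 without the 2 tumors farthest from the *Cdkn1a* median. With *Sesn2* it had r = 0.86 (permutation p = 0.00068, adjusted p = 0.0174) and rho = 0.84 (permutation p = 0.00211, adjusted p = 0.0237), and r was 0.70 without those tumors. With *Trp53inp1* it had r = 0.74 (permutation p = 0.00993, adjusted p = 0.0344) and rho = 0.90 (permutation p = 0.00045, adjusted p = 0.0202), and r was 0.68 without them. After the mean of each genotype was subtracted, these r were 0.80, 0.87 and 0.76. Tumors with more p21 mRNA tended to have more cyclin G1, sestrin 2 and *Trp53inp1* mRNA, but not each tumor followed this. In PyMT *Pcbp1*–/– replicate 5, *Cdkn1a* was at 0.43 relative to its mean on the log2 scale and *Sesn2* at -0.19. In PyMT *Pcbp1*+/+ replicate 1, *Cdkn1a* was at -0.08 and *Ccng1* at -0.45.

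*Trp53* mRNA had a median r of 0.45 with the other members, against 0.75 for *Mdm2* and 0.74 for *Trp53inp1*. Its single pair that passed, with *Bax*, had r = 0.69 (permutation p = 0.0197, adjusted p = 0.0492), but rho was 0.52 (permutation p = 0.108, adjusted p = 0.186) and r fell to 0.36 without the 2 tumors farthest from the *Trp53* median, so it rested on those. *Gadd45a* had a median r of 0.22 and 0 pairs that passed. Within the 6 PyMT *Pcbp1*–/– tumors alone its r was higher, at 0.92 with *Bbc3*, 0.74 with *Cdkn1a*, 0.68 with *Mdm2*, 0.67 with *Bax* and 0.59 with *Sesn2*. It was 0.43 with *Trp53inp1*, 0.33 with *Ccng1*, 0.33 with *Plk2* and 0.17 with *Trp53*. These values were not tested. Over the 9 tumors other than PyMT *Pcbp1*–/– replicate 1 and PyMT *Pcbp1*+/+ replicate 2, its r was lower with the first 5. It was 0.07 with *Bbc3*, 0.42 with *Cdkn1a*, 0.03 with *Mdm2*, 0.61 with *Bax* and 0.18 with *Sesn2*. Those 9 tumors are of both genotypes, so they differ from the 6 PyMT *Pcbp1*–/– tumors in more than the high tumor left out. These differences between genes in their correlations were not tested.

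Levels of different genes were compared per kilobase of annotated exon, for which GENCODE lengths were found for 10 of 10 genes. The length covered the exons of all annotated transcripts of a gene together, such as 7379 bases for *Trp53* and 6045 for *Cdkn1a*. It can exceed the length of the mRNA present, by a different share for each gene, so the order depends on this scale. On this scale *Ccng1* was the most abundant of the 10, with a mean of 28.3 CPM per kilobase over the 11 tumors, followed by *Trp53inp1* with 25.1. *Ccng1* was above *Trp53inp1* in 7 of the 11 tumors, so that their order was not fixed, while *Trp53inp1* was above *Cdkn1a*, the next, in 11 of 11. *Cdkn1a* (10.9), *Plk2* (9.61), *Gadd45a* (8.42) and *Trp53* (7.75) followed, and neighbors among these changed places from tumor to tumor, with *Cdkn1a* above *Plk2* in 6 of 11 and *Plk2* above *Gadd45a* in 5 of 11. *Mdm2* (6.41), *Bax* (4.87) and *Sesn2* (4.32) came next. *Bbc3* was the least abundant, with 2.11 CPM per kilobase, and lay below *Sesn2* in 11 of 11 tumors.

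Wider lists of the pathway also held 0 genes called by edgeR. Among 20 upstream regulators of p53, 0 differed at an adjusted p under 0.05 (edgeR), 11 had a positive and 9 a negative log2 fold change, and the median was 0.04. At an unadjusted p under 0.05, 2 were higher and 1 lower, beside 18.7% of all genes tested in either direction. DESeq2 called 1 (*Trp73*) and limma-voom 2 (*Trp73* and the checkpoint kinase gene *Chek2*, named here for these calls after its values were seen), beside 6.27% and 11.2% of all genes tested. The highest was *Trp73*, a p53 family member, with 0.975, 2.22 and 3.29 CPM in the lowest, median and highest PyMT *Pcbp1*–/– tumor and 1.28, 0.285, 0.701, 0.547 and 0.0893 CPM for PyMT *Pcbp1*+/+ replicates 1 to 5. Only PyMT *Pcbp1*+/+ replicate 1 reached into the PyMT *Pcbp1*–/– range, although levels were low in every tumor and replicates 2 and 5 were at or under 3 counts. Its log2 fold change was 1.83 (95% interval 0.78 to 2.87, adjusted p = 0.0694 from edgeR), and it was called by DESeq2, by limma-voom and without PyMT *Pcbp1*–/– replicate 2. The lowest was *Daxx*, a chaperone that binds p53 and MDM2, at -0.38 (adjusted p = 0.132 from edgeR). Its groups did not overlap, with from 15.0 to 22.4 CPM in PyMT *Pcbp1*–/– tumors, each below every PyMT *Pcbp1*+/+ tumor (22.4 to 26.2 CPM), as for 3.29% of all genes tested.

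Among 12 further arrest and feedback targets, 11 passed the filter on low counts and *Rprm* did not. 0 of the 11 were called by edgeR, DESeq2 or limma-voom, beside 2.27%, 6.27% and 11.2% of all genes tested. 7 were positive and 4 negative, with a median of 0.07. In each direction 1 had an unadjusted p under 0.05 (edgeR), beside 18.7% of all genes tested in either direction. The highest was *Trp53cor1*, the long noncoding RNA lincRNA-p21 that is encoded upstream of *Cdkn1a*, at 0.55 (adjusted p = 0.263 from edgeR). The lowest was *Ptprv*, a p53-induced phosphatase gene, at -1.26 (adjusted p = 0.207 from edgeR), with 3.38, 10.1, 2.54, 3.19 and 2.23 CPM for PyMT *Pcbp1*+/+ replicates 1 to 5. PyMT *Pcbp1*–/– replicate 1 had 4.19 CPM, and the other 5 tumors of its group, from 0.497 to 2.09 CPM, lay below every PyMT *Pcbp1*+/+ tumor.

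Among 11 further apoptosis targets, 0 were called by edgeR or DESeq2 and 1 by limma-voom, *Perp*. 10 were positive and 1 negative, with a median of 0.19, and 2 were higher at an unadjusted p under 0.05, beside 8.19% of all genes tested. The limma-voom count does not exceed its share of all genes tested, 11.2%. Without PyMT *Pcbp1*–/– replicate 1 the median was 0.03, with 6 positive and 5 negative, without PyMT *Pcbp1*+/+ replicate 5 it was 0.05 and without PyMT *Pcbp1*+/+ replicate 2 it was 0.38. *Perp*, a membrane protein of desmosomes, was the highest at 0.43 (95% interval 0.14 to 0.72, adjusted p = 0.118 from edgeR), and 5 of 6 PyMT *Pcbp1*–/– tumors were above the PyMT *Pcbp1*+/+ median of 97.5 CPM. *Pidd1*, a death domain protein, was the lowest at -0.31 (adjusted p = 0.507 from edgeR).

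Of 19 metabolic, antioxidant and repair targets, 17 were tested. *Gdf15* did not pass the filter and *Dglucy* was not analysed here. 0 were called by edgeR and 1 each by DESeq2 and limma-voom, *Triap1*, which encodes an apoptosis inhibitor. These counts of 1 in 17 do not exceed the shares of all genes tested, 6.27% and 11.2%. For *Triap1* edgeR gave 0.35 on the log2 scale (adjusted p = 0.101). Its groups did not overlap, as for 3.29% of all genes tested: the lowest PyMT *Pcbp1*–/– level was 16.1 CPM and the highest PyMT *Pcbp1*+/+ level 15.7 CPM. 13 were positive and 4 negative, with a median of 0.11. This median was 0.04 with limma on log2(CPM + 1) or log2(CPM + 0.1) and 0.05 with the replicate block. In each direction 1 had an unadjusted p under 0.05 (edgeR), beside 18.7% of all genes tested in either direction. *Dram1*, an autophagy regulator, was the highest at 0.50 (adjusted p = 0.369 from edgeR), with 25.7 CPM in PyMT *Pcbp1*–/– replicate 1 and from 8.50 to 11.4 CPM in the other 5 tumors of its group. PyMT *Pcbp1*+/+ replicates 1 to 5 had 10.0, 12.9, 7.89, 7.56 and 6.52 CPM, so that 6 of 6 PyMT *Pcbp1*–/– tumors were above the PyMT *Pcbp1*+/+ median and only PyMT *Pcbp1*+/+ replicates 1 and 2 overlapped with them. *Fdxr*, the mitochondrial ferredoxin reductase, was the lowest at -0.51 (adjusted p = 0.232 from edgeR).

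The other arm of the pathway is repression. p21 keeps cyclin-dependent kinases from inactivating the DREAM complex, which then silences genes of DNA replication and mitosis. Of 20 such genes, 20 had a positive log2 fold change, with a median of 0.46 beside 0.00 over all genes tested. 0 were called by edgeR at an adjusted p under 0.05, while 12 were higher at an unadjusted p under 0.05, as were 8.19% of all genes tested. DESeq2 called 6 higher, beside 2.51% of all genes tested, and limma-voom 14, beside 5.03%. These genes shifted together between tumors, so the counts are not those of 20 independent genes. Their median relative to their means on the log2 scale was -0.81 in PyMT *Pcbp1*+/+ replicate 1 and 0.38 in PyMT *Pcbp1*–/– replicate 5. Leaving out PyMT *Pcbp1*+/+ replicate 1 gave the lowest median, 0.34 with 16 positive, and leaving out PyMT *Pcbp1*+/+ replicate 2 the highest, 0.61 with 4 called (*Bub1b*, *Cdk1*, *E2f1* and *Mybl2*). *Mybl2*, a transcription factor of dividing cells, was the highest at 0.64 (adjusted p = 0.134 from edgeR), and *Kif23*, a kinesin of cytokinesis, the lowest at 0.01 (adjusted p = 0.988 from edgeR). The smallest adjusted p belonged to *Cdk1*, the mitotic kinase, at 0.051 from edgeR with a log2 fold change of 0.56. *Cdk1*, *Bub1b*, *E2f1* and, above, *Triap1* were picked after their values were seen.

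The DREAM genes were then set beside p21 tumor by tumor. The 20 DREAM genes, of which *Ccna2* was the most abundant per kilobase, summed to between 267 and 374 CPM in PyMT *Pcbp1*–/– tumors and to 179, 364, 237, 253 and 264 CPM for PyMT *Pcbp1*+/+ replicates 1 to 5. PyMT *Pcbp1*–/– replicate 1, which had the most p21 mRNA, had the lowest sum of its group. PyMT *Pcbp1*+/+ replicate 2, which had the most p21 mRNA among the PyMT *Pcbp1*+/+ tumors, had the highest sum of its group. PyMT *Pcbp1*+/+ replicate 1, next in its group with 60.4 CPM of *Cdkn1a*, had the lowest sum of all 11 tumors. PyMT *Pcbp1*–/– replicate 2, with the least p21 mRNA of its group (36.5 CPM), had a sum of 370 CPM. The relation was not tested. Most of these genes also mark dividing cells, and the share of dividing cells was not tested.

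The last comparison concerns sequence. Promoter windows of RefSeq genes (build GRCm38.p6), each from 250 bases before to 50 bases after a start, were searched for the p53 half-site, the 10-base motif of which a pair with a spacer of 0 to 13 bases makes a full binding site. The motif is its own reverse complement in form, so that a search of 1 strand covers both. 9 of the 10 genes had windows, 12 in all, and *Trp53inp1* had none. A half-site was found in 6 of the 12 windows, 1 for each of 6 genes, and in 8.36% of all 32851 windows. 1 of the 12 windows, that of *Cdkn1a*, held a pair with a spacer of that size, as did 0.0731% of all windows. The genes were picked as p53 and its well-known targets, so shares above those of all windows follow in part from that choice. The matches of these 6 genes are shown, each with its half-site in capitals and up to 10 bases on either side. Those of *Cdkn1a* begin 73 and 51 bases before the start, and the stretches printed, flanks included, lie at chr17:29090896-29090925 and chr17:29090918-29090947 on the plus strand. In the second of these, the 10 bases after the half-site match the motif at all but their first base. The strict search did not count them, so the pair it found is not the only possible one. The stretch of *Trp53* lies at chr11:69580274-69580303 on the plus strand. The stretches on the minus strand lie at chr10:117710925-117710954 (*Mdm2*), chr11:40755452-40755481 (*Ccng1*), chr6:67037428-67037457 (*Gadd45a*) and chr7:45467080-45467109 (*Bax*). The *Gadd45a* match begins 40 bases before the RefSeq start. By the deposited coordinates (chr6:67035096-67037457) its stretch lies within the gene, so the 2 starts differ.
Cdkn1a, first: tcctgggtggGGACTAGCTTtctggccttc
Cdkn1a, second: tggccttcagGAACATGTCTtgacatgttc
Trp53: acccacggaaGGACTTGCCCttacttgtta
Mdm2: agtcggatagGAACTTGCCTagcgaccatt
Ccng1: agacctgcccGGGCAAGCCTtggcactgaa
Gadd45a: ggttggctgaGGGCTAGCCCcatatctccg
Bax: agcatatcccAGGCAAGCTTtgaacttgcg

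A match describes letters in a window, not binding, and a window without one says only that these letters are absent there. Among the genes with a half-site, *Cdkn1a*, *Mdm2*, *Ccng1* and *Bax* took part in between 4 and 6 called pairs each by Pearson's r, *Trp53* in 1 and *Gadd45a* in 0. Of the genes whose windows held none, *Sesn2* took part in 5, *Plk2* in 3 and *Bbc3* in 1.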

How the data were processed

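Per the labels, poly(A)-enriched stranded libraries from 11 tumors were made in 1 batch. The authors used Bowtie2 to align read pairs to GRCm38 and worked in Partek Flow; the counting method and annotation version are not given in the sources used here. They deposited estimated counts per gene, not whole in 17.9% to 19.7% of values, and CPM, those counts divided by their sum per tumor.

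Estimated counts were rounded to whole numbers and tested with edgeR 4.0.16 (R 4.3.3): TMM factors, filterByExpr at its defaults (which kept 19232 genes, among them 10 of 10 members), the quasi-likelihood test with genotype as the only term, and Benjamini-Hochberg adjustment over all genes tested. Standard errors came from the F statistic. The steps were tested on simulated data, in which all genes had the same dispersion and no tumor stood apart. There a larger share of the calls was false with DESeq2 than with edgeR or limma-voom. Each of these tools missed part of the smaller changes. Since some of the real tumors do stand apart, the simulation does not show which tool's calls are more reliable here. Alternatives were DESeq2 1.42.0, limma 3.58.1 (voom with sample quality weights, and log2(CPM + 1) or log2(CPM + 0.1)), upper-quartile factors, library sizes alone, no filter, a filter of 1 CPM in 5 tumors, protein-coding genes only, a replicate block and each tumor left out in turn. Correlations were also run on log2(CPM + 1).

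The members and the gene and marker lists were chosen with earlier results of these data known. Named genes were the members, *Pcbp1*, genes overlapping a member, listed genes with an adjusted p under 0.05 and, in each of the 5 pathway lists, the genes with the highest and lowest log2 fold change. Other genes, among them cell type markers, were named after their values were seen. Exonic lengths came from GENCODE M39, another annotation, matched by Ensembl identifier; no coordinates were taken from it. Groups and replicates followed the labels, which do not say which animals the tumors came from, so p-values measure the spread between these samples. Limits at 3 counts cover counting error only. No 2 tumors held the same values.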

Additional observations from a re-analysis of the deposited data

Results flagged for a closer look

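Among the 22 groups of values of *Pcbp1* and the 10 genes (each gene in each genotype), 6 had a tumor whose gap to its nearest neighbor was a large part of the range of the group. For values with a normal distribution, chance gives this in about 1 in 20 groups, or 1.1 of 22. The rule was applied to CPM without a log, each of the 6 was a high value, and the genes are not independent of each other. The number 1.1 is therefore only a rough guide.

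PyMT *Pcbp1*–/– replicate 1 was far above the other PyMT *Pcbp1*–/– tumors for *Cdkn1a* (148 CPM, nearest 78.4 CPM), *Mdm2* (64.4 CPM, nearest 50.2 CPM) and *Gadd45a* (28.3 CPM, nearest 17.1 CPM). PyMT *Pcbp1*+/+ replicate 2 was far above the other PyMT *Pcbp1*+/+ tumors for *Ccng1* (173 CPM, nearest 94.7 CPM) and *Bax* (18.8 CPM, nearest 9.23 CPM). The one case outside those tumors was *Gadd45a* at 20.8 CPM for PyMT *Pcbp1*+/+ replicate 1, where the next tumor of the group had 11.9 CPM. The causes were not tested.

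Marker lists outside the main measurement are given as values. *Cd14*, on the macrophage list, was the single marker that passed the test (log2 fold change -1.19, adjusted p = 0.0481 by edgeR), lower in 6 of 6 PyMT *Pcbp1*–/– tumors than the PyMT *Pcbp1*+/+ median. Across the table edgeR called 2.27% of the genes tested, so this single call is no result about the marker lists. The other 6 macrophage markers had positive log2 fold changes. The medians were -0.05 for luminal epithelium, -0.17 for basal cells, 0.31 for fibroblasts, 0.23 for macrophages, -0.12 for the 3 T cell markers tested, -0.24 for endothelium and -0.80 for adipocytes, and 0 of 4 B cell markers were tested.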

How the results depend on the processing

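Over 21 alternatives the log2 fold changes of *Cdkn1a*, *Ccng1*, *Gadd45a* and *Sesn2* stayed positive and no member was called, except *Ccng1* with limma-voom. The all-gene median moved by -0.002 without TMM factors. The causes of the changes below were not tested.

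Across the table, edgeR called 319 genes lower and 117 higher, DESeq2 723 and 482, and limma-voom with sample quality weights 1190 and 968. DESeq2 called 1 upstream regulator, 1 metabolic, antioxidant or repair target and 6 DREAM genes. Limma-voom called 1 member, 2 upstream regulators, 1 apoptosis target, 1 metabolic, antioxidant or repair target and 14 DREAM genes, and turned *Trp53* to 0.24 and *Bax* to 0.23. Of the DREAM genes, 2 (*Bub1b* and *Cdk1*) were called with protein-coding genes only, 1 (*Cdk1*) with upper-quartile factors and 1 (*Cdk1*) with the filter of 1 CPM in 5 tumors.

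With 1 tumor left out in turn, the genes lower across the table ranged from 144 to 389 and those higher from 41 (without PyMT *Pcbp1*+/+ replicate 3) to 187 (without PyMT *Pcbp1*+/+ replicate 2). Calls ranged from 0 to 1 among upstream regulators and from 0 to 4 among DREAM genes. The log2 fold change ranged from -0.13 to 0.18 for *Trp53*, from -0.056 to 0.17 for *Mdm2*, from -0.030 to 0.17 for *Bbc3*, from -0.28 to 0.25 for *Bax*, from -0.43 to 0.094 for *Plk2* and from -0.027 to 0.21 for *Trp53inp1*. Those that stayed positive ranged from 0.37 to 0.94 for *Cdkn1a*, from 0.29 to 0.59 for *Ccng1*, from 0.085 to 0.49 for *Gadd45a* and from 0.054 to 0.36 for *Sesn2*. List medians ranged from -0.02 to 0.07 for upstream regulators, from 0.03 to 0.21 for arrest and feedback targets and from 0.06 to 0.13 for metabolic, antioxidant and repair targets. Fewer tumors are part of each such setting.

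Tumors numbered alike did not deviate together, with correlations of deviations from -0.16 to 0.31 over the numbers 1 to 5, and 1 of the 5 pairs correlated best with its own number. A fit with the replicate block, on 10 tumors, called 118 genes lower and 42 higher across the table, called 0 members and gave 0.044 for *Trp53* and 0.012 for *Bax*.

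On log2(CPM + 1), 19 pairs of members passed by Pearson's r in place of 18. The median r of 0.61 was 0.32 without PyMT *Pcbp1*–/– replicate 1 and PyMT *Pcbp1*+/+ replicate 2, chosen after seeing the data. Depth limited genes near 3 counts, such as *Trp73*; each member had at least 66 counts in every tumor.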
